A study of Mus musculus with 12 samples.

Results

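The Frizzled receptors are a family of 10 mouse genes, Fzd1 to Fzd10, and all 10 were found by symbol among the 27179 genes of the series. They were followed in bulk RNA of dorsal cortex, the part of the embryonic forebrain that forms the neocortex, from C57BL/6 mouse embryos. The groups were Ash2l conditional knockout (cKO) and wild-type (WT) cortex at embryonic day E16.5, and cKO and WT cortex at E14.5, with 3 libraries in each. In cKO embryos a D6-Cre transgene, active in the dorsal telencephalon, deletes Ash2l, so cells outside the reach of this Cre keep the gene. Whether the WT embryos carried Cre or floxed alleles, and whether a library is 1 embryo or a pool, is not given in the sources used here. ASH2L belongs to the core of COMPASS, a family of enzyme complexes that add methyl groups to lysine 4 of histone H3. The study asked what Ash2l does in cortex formation, with Wnt signalling named in its title.

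Frizzled proteins are membrane receptors that bind secreted Wnt ligands through a cysteine-rich domain outside the cell. Together with the coreceptors LRP5 and LRP6 they pass the signal through Dishevelled and keep beta-catenin from being destroyed, so that it can act with TCF/LEF factors on target genes. Some members work mainly without beta-catenin, in planar cell polarity, which orients cells within a sheet and guides axons. In the developing cortex, Wnt signals bear on how long progenitors divide and when they become neurons.

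By sequence the mammalian receptors fall into subfamilies: Fzd1, Fzd2 and Fzd7; Fzd5 and Fzd8; Fzd4, Fzd9 and Fzd10; and Fzd3 and Fzd6. Fzd1, Fzd2, Fzd7, Fzd8, Fzd9 and Fzd10 are genes of 1 exon, Fzd4 and Fzd5 have 2 exons, and Fzd3 and Fzd6 have 7 each. No exon of a Frizzled gene overlapped an exon of another gene on either strand in the annotation that the authors counted over.

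The stretches just before the starts of Fzd7 and its relative Fzd1 are shown because these neighbours in sequence had different values in cKO cortex. Each runs 5′ to 3′ along its gene for the 250 bases before the RefSeq start (GRCm38.p6), with every CG in capitals, since CG-rich promoters commonly carry methylated lysine 4. Fzd7 lies on the plus strand and its stretch is chr1:59481897-59482146. Fzd1 lies on the minus strand and its stretch is chr5:4758217-4758466.
Fzd7: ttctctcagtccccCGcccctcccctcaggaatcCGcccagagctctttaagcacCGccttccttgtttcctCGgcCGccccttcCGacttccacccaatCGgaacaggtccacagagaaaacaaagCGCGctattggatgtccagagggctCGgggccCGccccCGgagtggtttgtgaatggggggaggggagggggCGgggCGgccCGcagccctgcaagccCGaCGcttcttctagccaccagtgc
Fzd1: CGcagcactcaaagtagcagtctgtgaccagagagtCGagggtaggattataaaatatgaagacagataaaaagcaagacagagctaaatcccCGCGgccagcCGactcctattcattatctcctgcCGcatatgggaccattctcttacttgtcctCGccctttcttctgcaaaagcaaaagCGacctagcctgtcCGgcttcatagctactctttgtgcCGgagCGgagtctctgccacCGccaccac

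The Fzd7 stretch held 17 CG and 65.2% G or C, and the Fzd1 stretch held 12 CG and 51.2% G or C. The median over 32851 mouse promoters of the same length was 6 CG. Fewer CG than in Fzd7 were counted in 76.5% of promoters, and fewer than in Fzd1 in 66.5%. The letters CTTTGA or CTTTGT, the core read by TCF/LEF factors, were searched on both strands. Fzd7 held 1 copy and Fzd1 held 2, none overlapping, and 27.6% of all promoters held at least 1. RefSeq promoter stretches were matched for 6 of the 10 genes. Fzd4, Fzd5, Fzd9 and Fzd10 held 25, 32, 42 and 37 CG and no copy of the TCF/LEF letters. Thus Fzd7 had more CG than most promoters and fewer than these 4 relatives. No binding or methylation values were analysed here, so these are descriptions of sequence only.

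Levels are given in CPM, counts scaled to the size of their library, with sizes adjusted by TMM, a method that sets libraries level on the bulk of their genes. Libraries are named A, B and C within each age, and 1 cKO and 1 WT library that share a number in their titles share a letter. They held 14318147 to 24719047 counts. Ash2l, the deleted gene, stood at 54.4, 60.7 and 59.3 CPM in E16.5 cKO libraries, against 135, 129 and 135 CPM in E16.5 WT libraries. At E14.5 it stood at 47, 60 and 51.4 CPM in cKO libraries, against 126, 143 and 118 CPM in WT libraries. The Ash2l values therefore followed the genotype labels in all 12 libraries. Embryo sex, read from Xist and Y-linked counts, was female in all 3 E14.5 cKO libraries and male in all 3 E14.5 WT libraries, so sex and genotype cannot be told apart at that age. At E16.5, cKO C and WT A were female and the other 4 were male. Markers of dorsal cortex were present in every library, with summed levels of 2353 to 2800 CPM in E16.5 cKO, 3066 to 3413 CPM in E16.5 WT, 1941 to 2930 CPM in E14.5 cKO and 2873 to 3250 CPM in E14.5 WT. E14.5 cKO A stood apart with 345 CPM of meningeal fibroblast markers, against 13.5 to 48.1 CPM in the other 5 libraries of that age. Choroid plexus markers summed to 630 CPM in E16.5 WT C and 487 CPM in E14.5 WT A, against 8.98 to 60.7 CPM in the other 10 libraries. E14.5 WT B had 325 CPM of GABAergic and ventral telencephalon markers, against 24 to 133 CPM in the other 5 libraries of that age.

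Fzd7 was the only Frizzled gene that passed the test at both ages, with lower levels in cKO cortex. Counts were tested with edgeR's quasi-likelihood test at each age, and a gene was called where its p-value, adjusted by Benjamini-Hochberg over all genes tested, was under 0.05. All 10 Frizzled genes passed the filter on low counts in each comparison. At E16.5 the test called 2 of them, Fzd7 and Fzd6, both lower, where 15.9% of 14865 genes were called, 9.88% lower and 5.98% higher. At E14.5 it called 1, Fzd7, also lower, where 2.01% of 14788 genes were called, 1.66% lower and 0.352% higher. The same genes, and no other Frizzled gene, had an unadjusted p under 0.05, as did 31.6% of all genes at E16.5 and 20.2% at E14.5. They were also the Frizzled genes whose 3 cKO libraries lay apart from the 3 WT libraries. All cKO libraries lay under all WT libraries in 18.3% of all genes at E16.5 and 14.8% at E14.5, and over them in 19.3% and 11.9%. The median log2 fold change of the 10 genes was -0.12 at E16.5, where all tested genes had 0.02, and -0.05 at E14.5, where all tested genes had 0.03. Fewer cells of a type and less RNA per cell cannot be told apart in bulk tissue, here or for any result that follows.

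**Figure D1:**
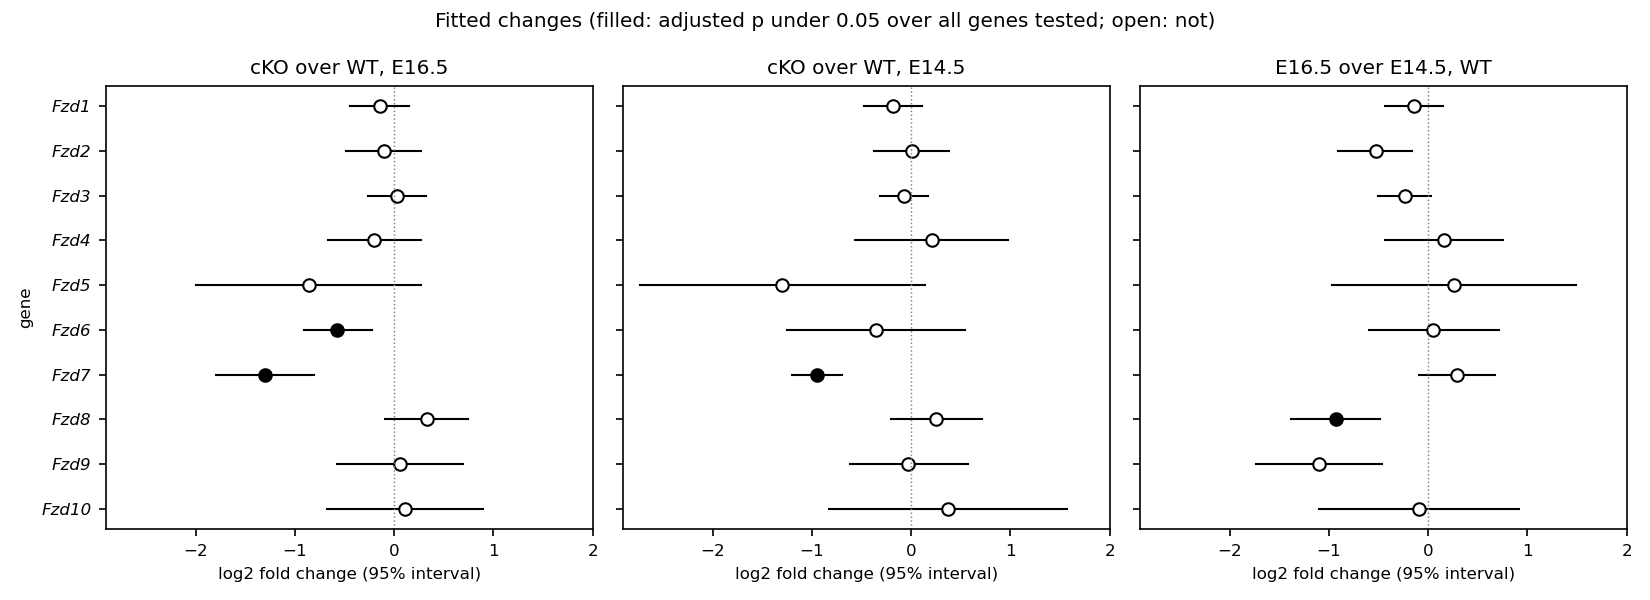
Log2 fold change of each Frizzled gene with its 95% interval from edgeR, for cKO over WT at E16.5, for cKO over WT at E14.5 and for WT E16.5 over WT E14.5; filled points are called. Fzd7 lies left of 0 in both cKO panels, at -1.30 (E16.5) and -0.95 (E14.5), while Fzd8 and Fzd9 have the lowest values in the age panel.

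Fzd7 (mouse Entrez gene 14369), a receptor that can signal through beta-catenin and is found in many stem and progenitor cells, lies on chromosome 1 from 59482147 to 59486955 (mm10, plus strand). At E16.5 it stood at 8.89, 16.2 and 13.4 CPM in cKO libraries A, B and C, against 29.4, 36.7 and 28.4 CPM in WT libraries. These rest on 167, 312 and 203 counts in cKO and 553, 631 and 554 counts in WT. The groups did not overlap, and the highest cKO library lay well under the lowest WT library. The mean was 12.8 ± 3.69 CPM in cKO and 31.5 ± 4.51 CPM in WT (SD, n = 3 each). The log2 fold change was -1.30 (SE 0.212, 95% interval -1.79 to -0.81, edgeR adjusted p = 0.00711).

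At E14.5 Fzd7 stood at 13.4, 12.9 and 13.3 CPM in cKO libraries, against 27.6, 23.4 and 26.1 CPM in WT libraries. The cKO libraries lay close together, and again no cKO library reached a WT library. The mean was 13.2 ± 0.26 CPM in cKO and 25.7 ± 2.11 CPM in WT (SD, n = 3 each), on 185 to 325 counts in cKO and 370 to 566 counts in WT. The log2 fold change was -0.95 (SE 0.109, 95% interval -1.20 to -0.70, edgeR adjusted p = 0.0156). This E14.5 call was lost without WT A, WT C, cKO B or cKO C (adjusted p = 0.0534, 0.11, 0.0512 and 0.132 with edgeR). It was also lost with a sex term in the fit of all 12 libraries (edgeR adjusted p = 0.144, against 0.00861 in that fit without the term). That term draws on E16.5, as sex and genotype cannot be told apart at E14.5. With a library left out or with the sex term, the log2 fold change stayed between -1.01 and -0.90. Without E14.5 cKO A (meningeal markers) and WT B (ventral markers) together it was -1.03 (edgeR adjusted p = 0.00781), and without WT A (choroid plexus markers) it was -0.90, the value that missed at 0.0534. Of the 8 tested GABAergic and ventral markers edgeR called 0 at E14.5, 5 had an unadjusted p under 0.05 and DESeq2 called 2, with a median log2 fold change of -1.64. Pan-neuronal markers at E14.5 summed to 2190, 3873 and 3425 CPM in cKO libraries, against 3739, 5121 and 4041 CPM in WT libraries, with a median log2 fold change of -0.55. Of these 10 markers edgeR called 1, Nefm (lower), 6 had an unadjusted p under 0.05 and DESeq2 called 4. Over all genes at E14.5 edgeR called 2.01%, and 20.2% had an unadjusted p under 0.05. The part of ventral or neuronal RNA in the Fzd7 values was not tested.

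**Figure D2:**
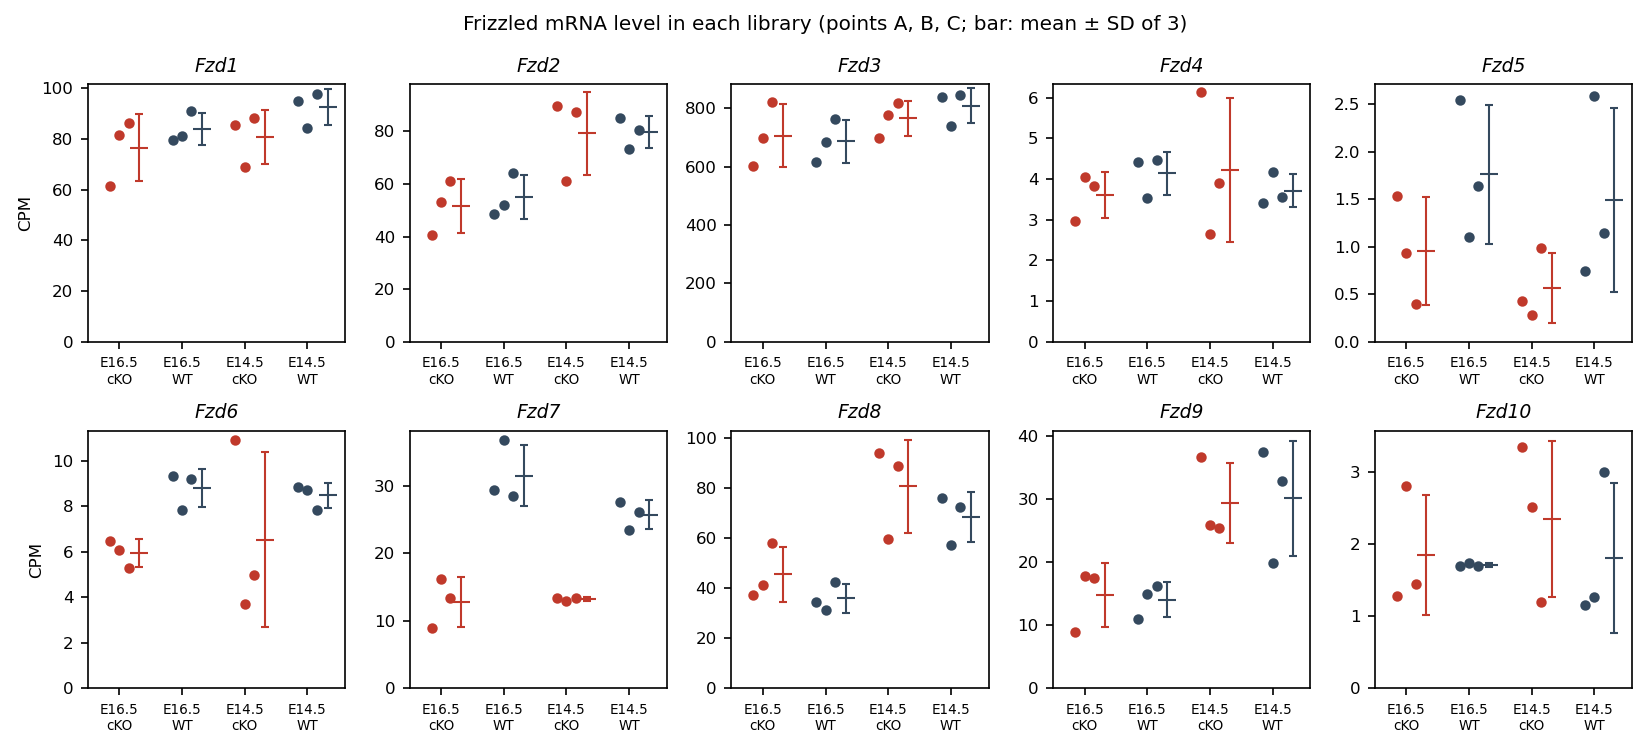
CPM of each Frizzled gene in every library (points A, B and C), on an axis from 0 that differs between genes, with the mean and SD of the 3 libraries beside them (bar) and cKO left of WT at each age. In the Fzd7 panel the E16.5 cKO points lie between 8.89 and 16.2 CPM and the E16.5 WT points between 28.4 and 36.7 CPM; in most other panels the groups of an age overlap.

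Read within pairs of libraries with the same letter, Fzd7 in cKO was 0.303, 0.442 and 0.472 times its WT level at E16.5 and 0.485, 0.551 and 0.511 times its WT level at E14.5. Since no cKO library reached a WT library at either age, any pairing gives 3 of 3 lower, and this count adds no support. At E14.5 the libraries are known to share a number and no more. Within a sex at E16.5, the male cKO libraries had 8.89 and 16.2 CPM against 36.7 and 28.4 CPM in male WT, and the female cKO library had 13.4 CPM against 29.4 CPM in female WT. Sex and genotype could be separated at this age, with 1 female library per genotype. The direction within each sex was likewise fixed by the groups not overlapping. At E16.5 Fzd7 was called with every library left out in turn, with edgeR adjusted p-values up to 0.0365 and log2 fold changes from -1.51 to -1.09.

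**Figure D3:**
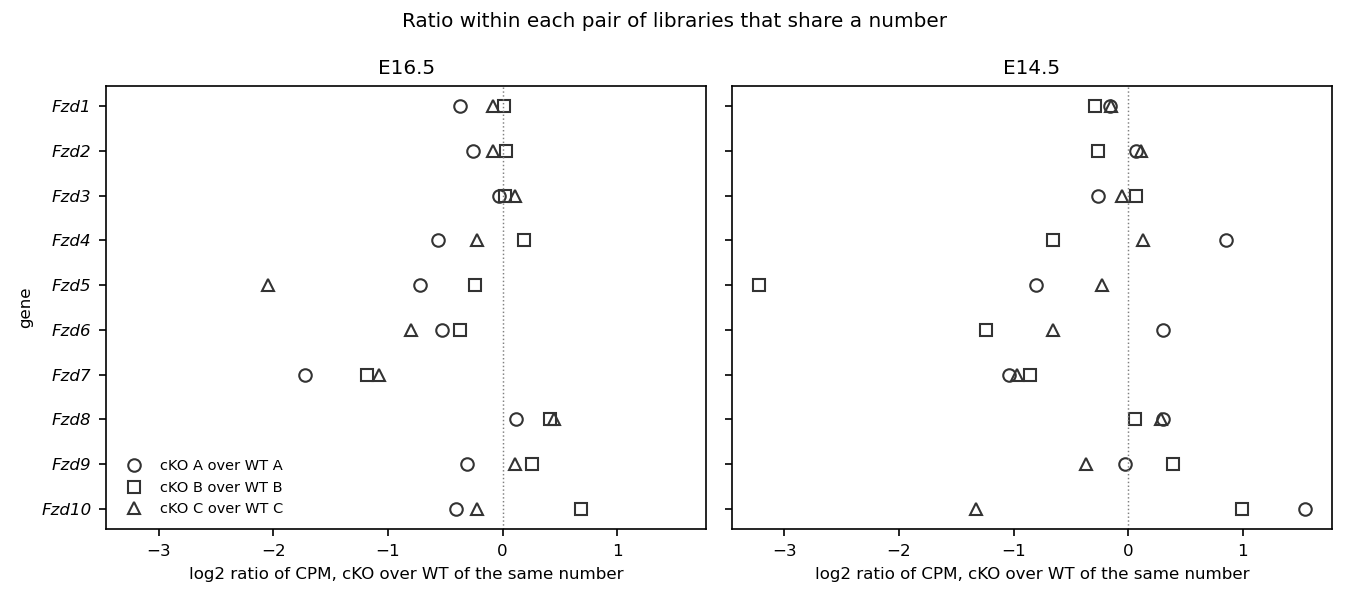
Log2 ratio of cKO over WT between the 3 same-letter library pairs of each age, 1 point per pair, for each Frizzled gene on a shared axis. All Fzd7 points lie left of 0, from -1.72 to -1.08 at E16.5 and from -1.04 to -0.86 at E14.5. All Fzd5 points also lie left of 0, and all Fzd8 points lie right of 0.

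Fzd1 and Fzd2, the closest relatives of Fzd7 and likewise able to act through beta-catenin, were not called. Fzd1 stood at 61.6, 81.7 and 86.3 CPM in E16.5 cKO libraries, against 79.7, 81.2 and 91.2 CPM in WT libraries, and the groups overlapped. Its log2 fold change was -0.14 (95% interval -0.44 to 0.15, edgeR adjusted p = 0.488) at E16.5 and -0.18 (-0.47 to 0.11, adjusted p = 0.456) at E14.5. At E14.5 the Fzd1 values were 85.4, 68.8 and 88.3 CPM in cKO and 95.1, 84.4 and 97.9 CPM in WT. Fzd2 stood at 40.5, 53.3 and 61 CPM in E16.5 cKO libraries, against 48.6, 52.2 and 64.4 CPM in WT libraries. At E14.5 it stood at 89.6, 61.2 and 87.3 CPM in cKO, against 85.2, 73.4 and 80.7 CPM in WT. Fzd2 overlapped between genotypes at both ages, with log2 fold changes of -0.10 (95% interval -0.48 to 0.27) at E16.5 and 0.01 (-0.37 to 0.38) at E14.5. The intervals of Fzd1 and Fzd2 thus reach no further down than -0.48, and those of Fzd7 no further up than -0.70; the differences between the genes were not tested. As a ratio within each library, Fzd7 had 0.144, 0.198 and 0.155 counts per Fzd1 count in E16.5 cKO, against 0.368, 0.451 and 0.312 in E16.5 WT. The same ratio was 0.156, 0.187 and 0.151 in E14.5 cKO, against 0.29, 0.277 and 0.267 in E14.5 WT. This ratio needs no scaling between libraries, and its groups did not overlap at either age.

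Fzd6, which with Fzd3 acts in planar cell polarity and orients hair and hair cells in mice, lies on chromosome 15 from 39006280 to 39038192 (mm10, plus strand). At E16.5 it stood at 6.49, 6.07 and 5.28 CPM in cKO libraries, against 9.35, 7.85 and 9.19 CPM in WT libraries, on 80 to 122 counts in cKO and 135 to 179 in WT. The groups did not overlap, with every cKO library under every WT library. The log2 fold change was -0.57 (SE 0.15, 95% interval -0.91 to -0.22, edgeR adjusted p = 0.0401). The call was lost without each E16.5 library in turn except cKO A, with adjusted p-values of 0.127, 0.0786 and 0.107 (WT A, B and C) and 0.117 and 0.0948 (cKO B and C). It was also lost with library totals as the scaling (0.0534) and in the fit of all 12 libraries (0.264).

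At E14.5 Fzd6 stood at 10.9, 3.7 and 4.97 CPM in cKO libraries, against 8.85, 8.73 and 7.85 CPM in WT libraries. The groups overlapped through cKO A alone, and the log2 fold change was -0.35 (95% interval -1.25 to 0.54, edgeR adjusted p = 0.647). It rested on single libraries: it was -0.96 without cKO A (adjusted p = 0.061 with edgeR), -0.93 without cKO A and WT B (0.0623), -0.18 without cKO C (0.875) and -0.09 without cKO B (0.9). E14.5 cKO A also had the highest Fzd4 level of its age, 6.14 CPM. It had the highest sum of 10 endothelial and pericyte markers, 256 CPM against 115 to 178 CPM in the other 5 libraries. The part of these markers in the Fzd4 and Fzd6 values was not tested.

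Fzd3, the other member of that pair and needed for the growth of major axon tracts in the mouse forebrain, overlapped between genotypes at both ages. It stood at 603, 697 and 821 CPM in E16.5 cKO libraries, against 615, 686 and 762 CPM in WT libraries. At E14.5 it stood at 700, 778 and 819 CPM in cKO libraries, against 839, 740 and 847 CPM in WT libraries. The log2 fold change was 0.03 (95% interval -0.26 to 0.32) at E16.5 and -0.07 (-0.31 to 0.17) at E14.5. These intervals were among the narrowest of the family.

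Fzd8, a receptor of beta-catenin signalling, was not called in cKO cortex at either age without a block for the replicate number. It was higher in cKO than in the same-letter WT library in 3 of 3 pairs at E16.5, and in 3 of 3 at E14.5. The share of all genes with 3 of 3 pairs in the same direction was not counted. Among the Frizzled genes, Fzd5 and Fzd7 were lower in 3 of 3 pairs at both ages, Fzd6 at E16.5 and Fzd1 at E14.5. At E14.5 the shared number was not taken to pair the libraries. At E16.5 Fzd8 stood at 37.2, 41.4 and 58.1 CPM in cKO libraries, against 34.3, 31.1 and 42.5 CPM in WT libraries. At E14.5 it stood at 94.1, 59.6 and 88.7 CPM in cKO libraries, against 76.2, 57.1 and 72.3 CPM in WT libraries. The groups overlapped at both ages, since libraries differed within a genotype by more than the genotypes did. Without the block its log2 difference of cKO from WT was 0.33 at E16.5 (SE 0.182, adjusted p = 0.255 with edgeR) and 0.25 at E14.5 (SE 0.195, adjusted p = 0.515). Single libraries moved these values: at E16.5 it was 0.12 without cKO C, and at E14.5 it was 0.11 without cKO A, 0.14 without WT B, 0.42 without cKO B and 0.00 without cKO A and WT B. With the replicate number as a block, the E16.5 value was 0.32 and passed (edgeR adjusted p = 0.0161), and the E14.5 value was 0.23 and did not (0.209). The E16.5 call rests on a weak pairing, since the correlation of the C pair is 0.112 over the genes of that age and 0.0926 over the genes of the 12-library fit. The sum of 10 apical progenitor markers, genes of the dividing cells that line the ventricle, was 1492, 1974 and 2017 CPM in E16.5 cKO libraries, against 1363, 1582 and 1731 CPM in WT libraries. At E14.5 it was 2267, 2113 and 2110 CPM in cKO libraries, against 2016, 1817 and 1945 CPM in WT libraries. This sum was also higher in each cKO library than in the same-letter WT library, and its part in the Fzd8 values was not tested. Of the 10 markers, 2 were called at E16.5, Hes5 (log2 fold change 0.68) and Nes (0.46), both higher, beside 5.98% of all genes called higher.

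Fzd9, a brain-enriched receptor, stood at 8.89, 17.9 and 17.6 CPM in E16.5 cKO libraries, against 11, 15 and 16.3 CPM in WT libraries. At E14.5 it stood at 36.7, 26 and 25.5 CPM in cKO libraries, against 37.6, 19.9 and 33 CPM in WT libraries. Its groups overlapped at both ages, and its log2 fold change was 0.06 (95% interval -0.57 to 0.69) at E16.5 and -0.03 (-0.62 to 0.57) at E14.5.

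Fzd4, the receptor through which Norrin acts on blood vessels, ranged from 2.98 to 4.05 CPM in E16.5 cKO and 3.54 to 4.47 CPM in E16.5 WT. Its range was 2.65 to 6.14 CPM in E14.5 cKO and 3.4 to 4.17 CPM in E14.5 WT. Fzd10 ranged from 1.28 to 2.8 CPM in E16.5 cKO and 1.69 to 1.74 CPM in E16.5 WT, and from 1.19 to 3.34 CPM in E14.5 cKO and 1.15 to 3 CPM in E14.5 WT. Both genes overlapped between genotypes at both ages, and neither was called.

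Fzd5, which in mice is needed for vessels of the yolk sac and for eye development, had the lowest counts of the family. It had 29, 18 and 6 counts in E16.5 cKO libraries, against 48, 19 and 32 in WT libraries. At E14.5 it had 8, 4 and 24 counts in cKO libraries, against 15, 41 and 25 in WT libraries. Its log2 fold change was -0.86 (95% interval -1.99 to 0.27, edgeR adjusted p = 0.273) at E16.5 and -1.30 (-2.73 to 0.14, adjusted p = 0.289) at E14.5. Single libraries moved these values: at E16.5 it was -0.51 without WT A, -0.52 without cKO C and -1.37 without cKO A, and at E14.5 it was -0.67 without WT B, -2.0 without cKO C and -0.48 without cKO A and WT B. Fzd5 was lower in cKO than in the same-letter WT library in 3 of 3 pairs at each age. The groups overlapped at both ages, and at these counts a change as large as that of Fzd7 was within the interval at both ages.

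The difference between the cKO effects at E16.5 and E14.5 was tested in 1 fit of all 12 libraries. For Fzd7 it was -0.33 on the log2 scale (SE 0.254, 95% interval -0.89 to 0.22, unadjusted p = 0.213 with edgeR). None of the 10 Frizzled genes was called by edgeR (0% of 15338 genes were called), 0 had an unadjusted p under 0.05 and DESeq2 called 0. Over all genes 318, or 2.07%, had an unadjusted p under 0.05 in edgeR and DESeq2 called 0. The Fzd6 fall at E16.5 is thus not shown to differ from E14.5, where its difference of effects was -0.19 (95% interval -1.13 to 0.74).

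To set the receptors beside each other, CPM were divided by exon length in kb. Fzd3 had the highest level per kb in all 4 groups, from 47.3 to 64.4 CPM per kb in E16.5 cKO, 48.2 to 59.8 in E16.5 WT, 54.9 to 64.3 in E14.5 cKO and 58.1 to 66.5 in E14.5 WT. Its range lay apart from that of the next gene in each group. Fzd1, Fzd2 and Fzd8 followed. In E16.5 WT they stood in that order with ranges of 18.2 to 20.8, 13.4 to 17.7 and 9.31 to 12.7 CPM per kb, and no neighbours overlapped. In E16.5 cKO, E14.5 cKO and E14.5 WT the ranges of neighbours among these 3 overlapped, so their order there is not resolved. Fzd9 and then Fzd7 came next in every group, and only in E16.5 WT did their ranges overlap, at 5.24 to 7.74 CPM per kb for Fzd9 and 5.91 to 7.63 CPM per kb for Fzd7. At E14.5 Fzd9 also overlapped the gene above it, Fzd1 in cKO and Fzd8 in WT. Fzd6, Fzd4, Fzd10 and Fzd5 closed the order in every group, Fzd5 at 0.0403 to 0.375 CPM per kb over the 12 libraries. Fzd6 and Fzd4 overlapped in E14.5 cKO, and Fzd4 and Fzd10 overlapped in E16.5 cKO, E14.5 cKO and E14.5 WT.

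**Figure D4:**
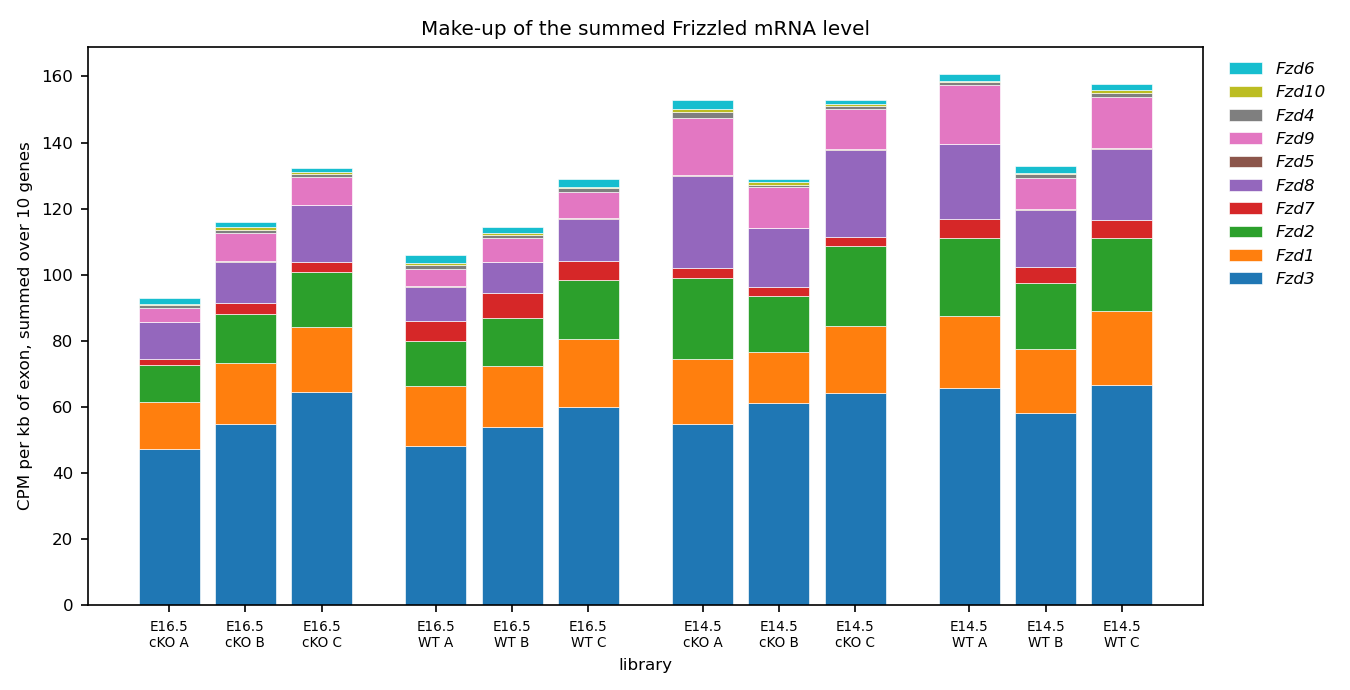
Level of the 10 Frizzled genes in CPM per kb of exon, stacked to their sum, 1 bar per library, with cKO left of WT at each age. Fzd3 takes the largest part of each bar, on average 41.8% to 49% of the sum per group, and Fzd7 takes 2.33% in E16.5 cKO and 5.67% in E16.5 WT.

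The summed Frizzled level per kb was 114 ± 19.9 CPM per kb in E16.5 cKO and 116 ± 11.7 CPM per kb in E16.5 WT (SD, n = 3 each). At E14.5 it was 145 ± 13.8 CPM per kb in cKO and 151 ± 15.3 CPM per kb in WT. These sums differed between genotypes by less than the spread between libraries. Within the sum, Fzd7 made up 2.33% ± 0.497 in E16.5 cKO and 5.67% ± 1.04 in E16.5 WT, and 1.9% ± 0.152 in E14.5 cKO and 3.56% ± 0.108 in E14.5 WT. Fzd8 made up 10.7% to 13.1% in E16.5 cKO and 8.14% to 9.84% in E16.5 WT, and 13.8% to 18.4% in E14.5 cKO and 12.8% to 14.2% in E14.5 WT. Fzd7 was thus a minor member of the family by RNA level in all 4 groups. Without dividing by length, which favours the long Fzd3 transcript, the Fzd7 share was 1.39% in E16.5 cKO and 3.43% in E16.5 WT.

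Age was compared in WT cortex alone, E16.5 against E14.5, in the fit of 12 libraries. Of the 10 Frizzled genes 1 was called, Fzd8, lower at E16.5, where 2.15% of 15338 genes were called, 1.39% lower and 0.763% higher. An unadjusted p under 0.05 was found for 3 of them, Fzd2, Fzd8 and Fzd9, and for 27.7% of all genes. Fzd8 stood at 34.3, 31.1 and 42.5 CPM in E16.5 WT libraries, against 76.2, 57.1 and 72.3 CPM in E14.5 WT libraries. The groups did not overlap, and the log2 fold change was -0.93 (SE 0.206, 95% interval -1.38 to -0.48, edgeR adjusted p = 0.0449). The call was lost with a sex term (0.0797), without the filter on low counts (0.0633) and without any 1 of 7 of the 12 libraries (0.0672 to 0.185): each E16.5 WT library, E14.5 WT A and C, E14.5 cKO C and E16.5 cKO B.

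Fzd9 stood at 11, 15 and 16.3 CPM in E16.5 WT libraries, against 37.6, 19.9 and 33 CPM in E14.5 WT libraries. Its groups did not overlap, and its log2 fold change of -1.10 (SE 0.29) missed the threshold in edgeR (adjusted p = 0.0588) and passed it in DESeq2 (0.00829). Fzd2 stood at 48.6, 52.2 and 64.4 CPM in E16.5 WT libraries, against 85.2, 73.4 and 80.7 CPM in E14.5 WT libraries. Its groups did not overlap either, and its log2 fold change was -0.53 (SE 0.173), with an adjusted p of 0.0857 in edgeR and 0.0479 in DESeq2. In all, 3 of the 10 genes lay lower in each E16.5 WT library than in any E14.5 WT library, where 18.3% of all genes did so. Fzd7 lay higher, at 29.4, 36.7 and 28.4 CPM in E16.5 WT libraries and 27.6, 23.4 and 26.1 CPM in E14.5 WT libraries, where 17% of all genes lay higher without overlap. Its log2 fold change of 0.29 was not called (edgeR adjusted p = 0.294). The sum of apical progenitor markers was 1363 to 1731 CPM in E16.5 WT and 1817 to 2016 CPM in E14.5 WT. Of the 10 markers 2 were called lower, beside 1.39% of all genes. The part of this sum in the Fzd2, Fzd8 and Fzd9 values was not tested.

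The counts for other genes of the pathway are set beside those for all genes. At E14.5 edgeR called 0 of 64 tested genes of 7 Wnt lists, beside 2.01% of all genes. An unadjusted p under 0.05 was found for 11 of them, beside 20.2% of all genes, and DESeq2 called 3, beside 1187 of 14991 genes. At E16.5 edgeR called 8 of 66, or 12.1%, with 7 lower and 1 higher, beside 15.9% of all genes. An unadjusted p under 0.05 was found for 13 of them, beside 31.6% of all genes, and DESeq2 called 10, beside 2770 of 16209 genes. The median log2 fold change of the Wnt list genes was -0.06 at E16.5 and -0.04 at E14.5, where all tested genes had 0.02 and 0.03. None of 9 coreceptor genes was called by edgeR at E16.5 (0 at an unadjusted p under 0.05, 0 by DESeq2), and none of 6 tested genes of secreted Frizzled-related proteins and other secreted inhibitors was (0 and 0).

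Among regulators of Frizzled turnover 1 of 9 was called at E16.5, Lgr4, a receptor for R-spondins, which protect Frizzled proteins from removal at the cell surface. Lgr4 averaged 4.77 ± 0.452 CPM in cKO and 9.75 ± 1.03 CPM in WT (SD, n = 3 each), a log2 fold change of -1.04 (edgeR adjusted p = 0.00513). Of 12 tested Wnt ligands 1 was called, Wnt5b, at 1.06 ± 0.369 CPM in cKO and 2.96 ± 0.671 CPM in WT (log2 fold change -1.48, edgeR adjusted p = 0.0222). Of 11 genes of Dishevelled and the beta-catenin destruction machinery 1 was called, the kinase gene Csnk1a1, with a log2 fold change of -0.32 (edgeR adjusted p = 0.0413). Of 9 planar cell polarity genes 2 were called, both lower: the cadherin gene Celsr2 (log2 fold change -0.36, edgeR adjusted p = 0.0124) and Prickle2 (-0.87, adjusted p = 0.0202). In the order given, these calls were 11.1%, 8.33%, 9.09% and 22.2% of the tested genes of each list, beside 15.9% of all genes.

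Of 10 genes commonly read as targets of beta-catenin 3 were called at E16.5, in both directions, beside 15.9% of all genes. An unadjusted p under 0.05 was found for 3 of them, beside 31.6% of all genes, so that count was near the share of all genes. Nkd2, which codes for a protein that binds Dishevelled, averaged 2.86 ± 0.324 CPM in cKO and 7.86 ± 0.839 CPM in WT, a log2 fold change of -1.47 (edgeR adjusted p = 0.00264). Tcf7, a TCF/LEF factor gene, averaged 2.61 ± 0.484 CPM in cKO and 4.54 ± 0.442 CPM in WT, a log2 fold change of -0.80 (edgeR adjusted p = 0.039). Apcdd1, a membrane inhibitor of Wnt signalling, averaged 79 ± 7.34 CPM in cKO and 61.2 ± 5.7 CPM in WT, a log2 fold change of 0.36 (edgeR adjusted p = 0.0473). At this age 7 of 10 pan-neuronal markers were also called lower, beside 9.88% of all genes. Their sum was 3862 to 4441 CPM in cKO and 5345 to 5647 CPM in WT. The part of neuronal RNA in the values of Fzd7, Fzd6, Nkd2, Tcf7 and Apcdd1 was not tested.

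Genes whose pattern over the 12 libraries was closest to that of Fzd7 were sought among 10730 genes, as the root mean square difference of log2 CPM after each gene was centred on its mean. The nearest were Npr2, a natriuretic peptide receptor gene (0.14), Serinc5 (0.17) and Iglon5 (0.173). Npr2 averaged 19.5 CPM in E16.5 cKO and 49.5 CPM in E16.5 WT, and 21.4 CPM in E14.5 cKO and 42.5 CPM in E14.5 WT. Nearest to Fzd6 were Elk3 (0.142), Igfbp4 (0.169) and Arfgef2 (0.175). Elk3, an ETS factor gene known from endothelial cells, averaged 10.1 CPM in E16.5 cKO and 15.3 CPM in E16.5 WT, and 10.9 CPM in E14.5 cKO and 13.8 CPM in E14.5 WT. These distances describe the 12 libraries, which the genes share.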

How the data were processed

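Dorsal cortex RNA was extracted with TRIzol and sequenced in 12 libraries, per the labels. The authors aligned reads to mm10 with STAR 2.5.2b, per the submitters' processing notes. The deposited counts per gene came from featureCounts 1.5.2 over RefSeq exons of mm10, counting read pairs on the reverse strand, per the file headers. The authors also deposited tables of log2 ratios (WT over knockout) and adjusted p-values for each age, made with DESeq2 1.14.1 per the submitters' processing notes. Its 12 columns of normalised library values were not used.

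Groups were taken from genotype and age in the labels. The main test was edgeR's quasi-likelihood F test (edgeR 4.0.16 with limma 3.58.1, R 4.3.3), fitted robustly after filterByExpr on the groups and TMM scaling. P-values were adjusted by Benjamini-Hochberg across every gene in the fit, and those under 0.05 were called. The cKO comparisons used the 6 libraries of 1 age, and the age comparisons used all 12 libraries in 4 groups. DESeq2 1.42.0 was an alternative. Each SE was derived from the log2 fold change and its F statistic. Log CPM used a prior count of 2. Genes compared by pattern had a mean of at least 5 CPM and no clone, predicted or pseudogene symbol. The fits were tested on simulated counts, with the same spread set for every gene and no sex or tissue effect. That run does not bear on such effects in these data.

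The members, gene lists and tests were chosen with earlier results of these data known. The named genes are all 10 Frizzled genes, Ash2l, up to 3 called genes per Wnt list and cKO comparison by p, and the 3 nearest patterns for each called Frizzled gene; Hes5, Nes and Nefm were named after their values were seen. P-values measure only the spread between these libraries, which may be technical. Deviations of the same-numbered E16.5 libraries from their group means correlated in every pair (r = 0.281, 0.21 and 0.112), so these numbers were taken to pair the libraries. The support is weak: over the genes of the 12-library fit the last r was 0.0926, and cKO B and WT C, which differ in number, reached 0.107. CPM cover sequencing depth only, and no spike-in scaling was used.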

Additional observations from a re-analysis of the deposited data

How the results depend on the processing

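At E16.5 Fzd7 was called under every alternative run, with log2 fold changes from -1.51 to -1.09. The number of Frizzled genes called at E16.5 was 1, Fzd7 alone, in the fit of 12 libraries, in that fit with a sex term and with library totals, and 1 to 2 with a library left out, which leaves 2 libraries against 3. At E14.5 it was 0 with the sex term and 0 to 1 with a library left out. For WT E16.5 against WT E14.5 it was 0 with the sex term, 0 without the filter on low counts, 3 with DESeq2 (Fzd2, Fzd8 and Fzd9) and 0 to 2 with a library left out. For the age difference of the cKO effect it was 0 throughout. The causes of these changes were not tested.

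With the replicate number as a block, the Frizzled genes called were 3 at E16.5 (Fzd6, Fzd7 and Fzd8), 1 at E14.5 (Fzd7) and 0 for the age difference. Fzd7 had a log2 fold change of -1.33 at E16.5 and -0.95 at E14.5, and Fzd6 had an edgeR adjusted p of 0.0168 at E16.5. No other Frizzled call changed with the block. At E14.5 the same-numbered deviations correlated at 0.272, 0.304 and -0.00218. Since the last pair did not correlate, the numbers were not taken to pair the libraries there, but pairing is not excluded. The reported fits used no block at either age. No paired analysis was possible for WT E16.5 against WT E14.5, because no number occurs at both ages.

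Counts of all called genes moved more. At E14.5 they were 297 in the reported fit, 1187 with DESeq2, 1279 with the block, 1336 in the fit of 12 libraries, 128 with sex, 621 without WT B and cKO A, and as few as 5 with a library left out. At E16.5 they were 2358 in the reported fit, 4790 with the block, 1569 with sex and 987 to 2855 with a library left out. For WT ages they were 330 in the reported fit, 1967 with DESeq2, 10 with sex and 1 to 2216 with a library left out. For the age difference they were 0, and 1 with the block.

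Signs turned only for log2 fold changes that were not called. At E14.5 Fzd2 was -0.01 in the fit of 12 libraries and with the block, -0.07 with sex and -0.16 without WT B and cKO A. Without those libraries Fzd4 was -0.07 and Fzd10 was -0.22, and with sex Fzd8 was -0.01. With a library left out, the E14.5 ranges that crossed 0 were -0.10 to 0.16 (Fzd2), -0.16 to 0.44 (Fzd4), -0.25 to 0.16 (Fzd9) and -0.02 to 0.96 (Fzd10). At E16.5 they were -0.24 to 0.05 (Fzd2), -0.09 to 0.13 (Fzd3), -0.11 to 0.33 (Fzd9) and -0.34 to 0.33 (Fzd10). For WT ages they were -0.09 to 0.89 (Fzd5) and -0.34 to 0.51 (Fzd10). For the age difference they were -0.08 to 0.17 (Fzd1), -0.28 to 0.04 (Fzd2), -0.00 to 0.20 (Fzd3), -0.21 to 1.12 (Fzd5), -0.50 to 0.37 (Fzd6), -0.11 to 0.24 (Fzd8), -0.09 to 0.35 (Fzd9) and -0.86 to 0.12 (Fzd10). Depth limits Fzd5 and Fzd10 most, with at most 65 counts in any library.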

Other observations

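In the authors' deposited table of log2 ratios of WT over knockout, the sign runs the other way. Fzd7 stood there at 1.13 (adjusted p = 2.03e-07) at E16.5 and 0.9 (adjusted p = 9.58e-09) at E14.5, and Fzd6 at 0.51 (adjusted p = 0.0228) at E16.5, by the authors' deposited table. In the authors' deposited table no other Frizzled gene had an adjusted p under 0.05 at either age, the lowest of them being 0.273 for Fzd5 at E14.5. The deposited ratios of Fzd5 and Fzd7 were also smaller in size than those of the DESeq2 fit made here. For Fzd5 at E14.5 the deposited ratio was 0.54, and the DESeq2 fit gave -1.36 for cKO over WT (adjusted p = 0.267). The deposited sizes are therefore not on the same measure as the log2 fold changes above.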
